A study of Homo sapiens with 18 samples.

Results

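Matrix metalloproteinases (MMPs) and their tissue inhibitors (TIMPs) were followed by their transcripts in 3 TNBC cell lines, the mesenchymal-like BT549 and Hs578T and the inflammatory breast cancer line SUM149PT. The set was 10 genes chosen by name, namely MMP1, MMP2, MMP3, MMP9, MMP10, MMP13, MMP14, TIMP1, TIMP2 and TIMP3. They were read by 13 of the 21111 probes of the TempO-Seq panel, and the whole table held 19289 gene symbols. MMP2, MMP3 and TIMP1 had 2 probes each, which read the same gene and were kept apart. Each cell line was transfected for 72 h with 50 nM siRNA against ASAP1 (siASAP1) or with control siRNA (siCtrl), with 3 libraries per condition and 18 in all. ASAP1 encodes an Arf GTPase-activating protein of focal adhesions and invasive membrane protrusions. siASAP1 was a SMARTpool, a mixture of siRNAs against the same gene, and siCtrl was a pool of siRNAs against kinases, so the controls also carried siRNA. TempO-Seq joins a pair of detector oligos on their target RNA and counts the amplified product, so each probe reports a short stretch of 1 transcript.

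MMPs are zinc-dependent proteases that cut collagens, laminins and other proteins of the extracellular matrix, and most are made as inactive precursors. MMP1 and MMP13 are collagenases, MMP3 and MMP10 are stromelysins, MMP2 and MMP9 are gelatinases, and MMP14 is anchored in the plasma membrane, where it can activate the MMP2 precursor. TIMPs bind the active site of MMPs and block them, and TIMP2 also takes part in the activation of MMP2 at the cell surface. In invasive breast cancer cells MMP14 is the main protease of invadopodia, the protrusions with which cells open the matrix.

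MMP10, MMP1, MMP3 and MMP13 lie on the minus strand of chromosome 11 within 185 kb (GRCh38, GENCODE v29, chr11:102770503-102955734). The other members are scattered, with MMP2 on chromosome 16, MMP9 on 20, MMP14 on 14, TIMP1 on X, TIMP2 on 17 and TIMP3 on 22. The RefSeq promoter table (GRCh38.p14) held 4 of the 10 members, which were MMP10, MMP14, TIMP1 and TIMP3. The 250 bases before the start are shown for 3 of them, MMP10 as the only one of the members on chromosome 11 in the table, MMP14 as the membrane-bound member, and TIMP3 as a member read in a single cell line. Capitals mark the AP-1 site TGANTCA and the TATA motif TATAAA where a match was found on either strand.

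MMP10 promoter, chr11:102780629-102780878, minus strand: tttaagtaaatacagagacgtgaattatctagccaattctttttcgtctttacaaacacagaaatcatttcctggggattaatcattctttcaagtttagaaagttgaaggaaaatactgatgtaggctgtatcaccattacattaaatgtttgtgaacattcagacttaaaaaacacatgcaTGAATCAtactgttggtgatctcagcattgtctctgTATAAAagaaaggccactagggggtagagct

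MMP14 promoter, chr14:22836335-22836584, plus strand: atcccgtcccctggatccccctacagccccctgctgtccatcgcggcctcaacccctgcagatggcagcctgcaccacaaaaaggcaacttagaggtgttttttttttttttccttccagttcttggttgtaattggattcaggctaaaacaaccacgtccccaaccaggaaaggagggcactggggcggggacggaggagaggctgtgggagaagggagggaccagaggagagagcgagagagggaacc

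TIMP3 promoter, chr22:32801455-32801704, plus strand: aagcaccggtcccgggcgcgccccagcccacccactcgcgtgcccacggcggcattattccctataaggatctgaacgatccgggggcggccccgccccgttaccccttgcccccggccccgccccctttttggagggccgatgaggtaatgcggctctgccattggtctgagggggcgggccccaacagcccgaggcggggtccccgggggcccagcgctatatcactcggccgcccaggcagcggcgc

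The MMP10 window held TGAATCA 67 bases and TATAAA 31 bases before the start, and its GC content was 34.4%. Over all 35116 promoters of the table, 6.57% held TGANTCA, 10.7% held TATAAA and the median GC content was 58%. Neither motif was found in the windows of MMP14, TIMP1 or TIMP3, whose GC contents were 56.8%, 64.8% and 72.4%. The ETS motif AGGAAG, present in 28.7% of all windows, had a single match among the 4 members, 87 bases before the start of TIMP1. These matches describe the letters of a window and not the binding of a factor.

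The libraries held between 4.63 and 12.5 M reads, with a median of 6.63 M. The values below are normalized counts, which are reads divided by the size factor of the library. The ASAP1 probe was lower in every siASAP1 than in every siCtrl library of BT549 (Log2 FC -0.75) and Hs578T (Log2 FC -0.98). In SUM149PT the library labelled siCtrl replicate 2 had 189 normalized counts of ASAP1, within the siASAP1 range of 184 to 468 and far from the 1087 and 1314 of the other siCtrl libraries. On the main axis of variation between replicates, which held 42.5% of that variance, this library scored 1.88 against -1.32 and -1.59 for the other siCtrl libraries, while siASAP1 replicate 2 scored -1.14 against 1.01 and 1.16. Differences of the members that involve the siCtrl libraries of SUM149PT are therefore given with and without siCtrl replicate 2 where it moved them. Those of genes outside the set are given with all libraries only. The marker lists matched the named lines in part. The epithelial-like list (8 genes) summed to 57.4 to 495 normalized counts in the siCtrl and siASAP1 libraries of BT549 and Hs578T and to 30126 to 57398 in SUM149PT. The mesenchymal-like list (7 genes) summed to 58565 to 60668 in BT549 siCtrl and 5875 to 7340 in SUM149PT siCtrl, although ZEB1 was at or near 0 in all 3 lines and CDH2 had a siCtrl mean of 325 in BT549 and 1733 in SUM149PT. VIM, FN1 and SPARC carried the sum in BT549. Among the receptors that triple-negative cells lack, PGR was at or near 0 in the siCtrl groups and the siCtrl mean of ESR1 ran from 0 to 39.6 and that of ERBB2 from 42.6 to 63.6.

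In siCtrl cells the members followed the cell line. MMP1 was read in BT549 and Hs578T and hardly in SUM149PT. MMP3 was read in BT549, was close to the detection limit in Hs578T, with at most 13 reads per library, and had no read in SUM149PT. MMP2 was high in Hs578T and SUM149PT and close to the detection limit in BT549, and TIMP3 was read in Hs578T alone among the siCtrl groups beyond 4 reads per library. The libraries of the 3 lines overlapped for TIMP1. Of the 13 probes, 9 passed the filter of a mean of 10 normalized counts over the 9 siCtrl libraries.

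**Figure D1:**
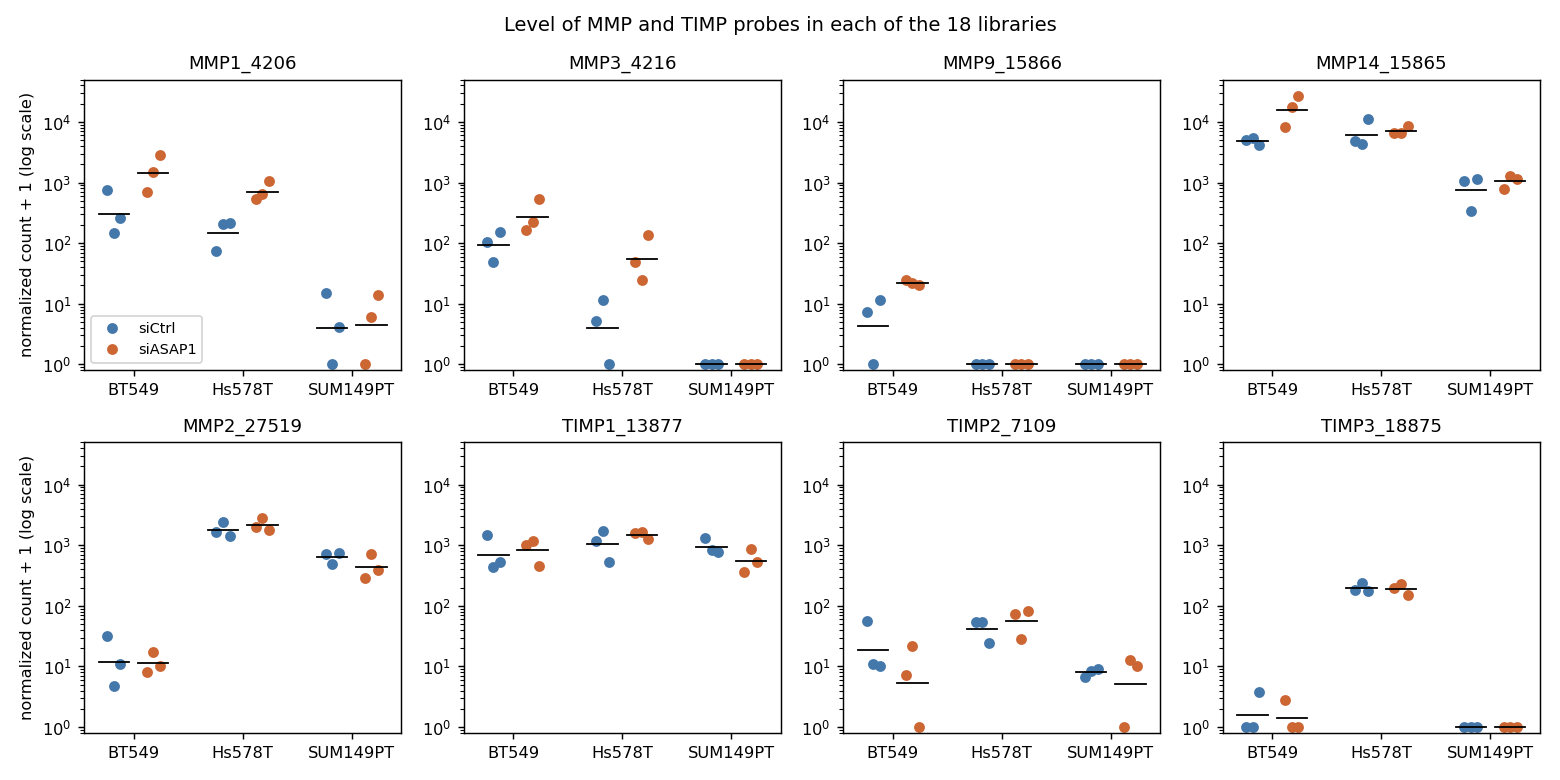
Normalized count plus 1 (vertical, log scale) of 8 probes in each of the 18 libraries, by cell line (horizontal) and treatment (blue siCtrl, orange siASAP1). Points are libraries and lines the mean on the log scale, and points at the bottom of a panel are libraries with 0 reads. The 3 siASAP1 libraries of Hs578T lay above the 3 siCtrl libraries for MMP1 and MMP3.

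MMP14 had 5084, 5351 and 4204 normalized counts in the siCtrl libraries of BT549, and 4863, 4303 and 11226 in those of Hs578T. In SUM149PT siCtrl it had 1078 and 1138, and 339 in the library labelled siCtrl replicate 2. Its level was lower in SUM149PT than in BT549 (Log2 FC -2.70, SE 0.52, adjusted p = 0.0049, limma) and than in Hs578T (Log2 FC -3.05, adjusted p = 0.0022, limma), and BT549 and Hs578T did not differ beyond their spread (Log2 FC -0.35, 95% interval -1.51 to 0.82). Without the library labelled siCtrl replicate 2 these differences were -2.13 (adjusted p = 0.0037) and -2.48 (adjusted p = 0.0017). Counts of different genes depend on the probe as well as on the transcript, so the order of genes within a library is not an order of transcript numbers.

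MMP1, the interstitial collagenase, had 752, 143 and 263 normalized counts in BT549 siCtrl, 72.6, 205 and 218 in Hs578T siCtrl, and 14.3, 0 and 3.20 in SUM149PT siCtrl. The last of these came from 10, 0 and 2 reads. MMP1 was lower in SUM149PT than in BT549 (Log2 FC -6.26, SE 1.00, adjusted p = 0.0015, limma) and than in Hs578T (Log2 FC -5.22, adjusted p = 0.0043, limma). Without the library labelled siCtrl replicate 2, which had no MMP1 read, these differences were -5.26 (adjusted p = 0.0017) and -4.22 (adjusted p = 0.0052). Between BT549 and Hs578T the libraries overlapped (Log2 FC 1.04, 95% interval -1.19 to 3.27).

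MMP3 was read by the probe MMP3_4216 at 105, 47.8 and 152 normalized counts in BT549 siCtrl and at 4.22, 10.6 and 0 in Hs578T siCtrl. No read fell on it in any of the 6 SUM149PT libraries. BT549 stood 4.56 above Hs578T on the log2 scale (SE 0.91, adjusted p = 0.0077, limma) and at least 77.4-fold above SUM149PT, taking 3 reads over the group as the limit of a count of 0 (adjusted p = 0.00065, limma). The step from Hs578T to SUM149PT was not resolved at this depth (adjusted p = 0.16, limma), although it passed without Hs578T siCtrl replicate 3 (adjusted p = 0.025). The other MMP3 probe, MMP3_26059, had at most 8 reads in any library.

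MMP2 was read by MMP2_27519 at 1667, 2422 and 1406 normalized counts in Hs578T siCtrl, 724, 486 and 750 in SUM149PT siCtrl, and 31.2, 3.77 and 9.82 in BT549 siCtrl. The 3 groups did not overlap. The Log2 FC of BT549 against Hs578T was -7.24 (SE 0.62, adjusted p = 5.5e-05, limma) and SUM149PT was higher than BT549 by 5.76 (adjusted p = 0.00012, limma). SUM149PT and Hs578T differed by -1.48 (adjusted p = 0.13, limma), with voom weights by -1.49 (adjusted p = 0.027), and without the library labelled siCtrl replicate 2 by -1.28 (adjusted p = 0.18). MMP9, the other gelatinase, had 5, 0 and 15 reads in BT549 siCtrl and none in the 12 libraries of the other lines.

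TIMP3, an inhibitor that stays bound to the matrix, had 181, 238 and 173 normalized counts in Hs578T siCtrl, 0, 0 and 2.81 in BT549 siCtrl and 0 in every SUM149PT library. The Log2 FC of BT549 against Hs578T was -6.97 (adjusted p = 0.00011, limma), and Hs578T was at least 150-fold higher than SUM149PT (adjusted p = 3.5e-05, limma). TIMP2 had 53.2, 53.9 and 23.6 in Hs578T siCtrl, 56.2, 10.1 and 9.12 in BT549 and 5.72, 7.29 and 7.99 in SUM149PT, where the difference between SUM149PT and Hs578T was -2.40 (SE 0.77, adjusted p = 0.054, limma). TIMP1, read by TIMP1_13877 at means of 809 to 1147 in the 3 siCtrl groups, differed between lines by at most 0.56 on the log2 scale, and each of the 3 intervals held 0. Of the 9 probes tested, 3 passed an adjusted p of 0.05 between BT549 and Hs578T, where 13.9% of all 10255 probes passed. SUM149PT against BT549 gave 4 (18.2% of all probes) and SUM149PT against Hs578T gave 3 (20.2% of all probes). These contrasts share libraries and are not independent of each other. MMP3 passed the filter only through BT549 and TIMP3 only through Hs578T, so a difference from that line was built into their being tested. Nothing is read from the counts against the shares. In bulk libraries, fewer cells that express a gene and less of its RNA in every cell cannot be told apart.

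After ASAP1 silencing, the collagenase MMP1 and the stromelysin MMP3 were several-fold higher in BT549 and Hs578T, and MMP14 was higher in BT549. None of these differences passed an adjusted p of 0.05 in a single cell line, and 0% of all probes did so in BT549, Hs578T or SUM149PT. At an unadjusted p under 0.05, limma gave 754, 502 and 1025 probes in these lines. Under the limits that the study used (unadjusted p under 0.05 and absolute Log2 FC over 1), 3 of 8 tested member probes were higher and 0 lower in BT549, where 3.28% of all 9666 probes were higher. In Hs578T 2 of 8 were higher and 0 lower (1.34% of all 9500 probes were higher), and 1 of these, MMP3, was tested only because of its level after siASAP1, which leaves MMP1. In SUM149PT 0 of 5 met the limits (5.27% of all 10078 probes were higher). Without overlap between the groups, 3 of 8 were higher in BT549 (7.35% of all probes), 3 of 8 in Hs578T (6.31%) and 0 of 5 in SUM149PT (8.87%). These counts include MMP9 in BT549 and MMP3 in Hs578T, which passed the filter only through the siASAP1 libraries and so had to differ, and nothing is read from the counts against the shares. The tested probes stood for 7, 7 and 3 of the 10 genes, and the rest were below the filter of 10 normalized counts.

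**Figure D2:**
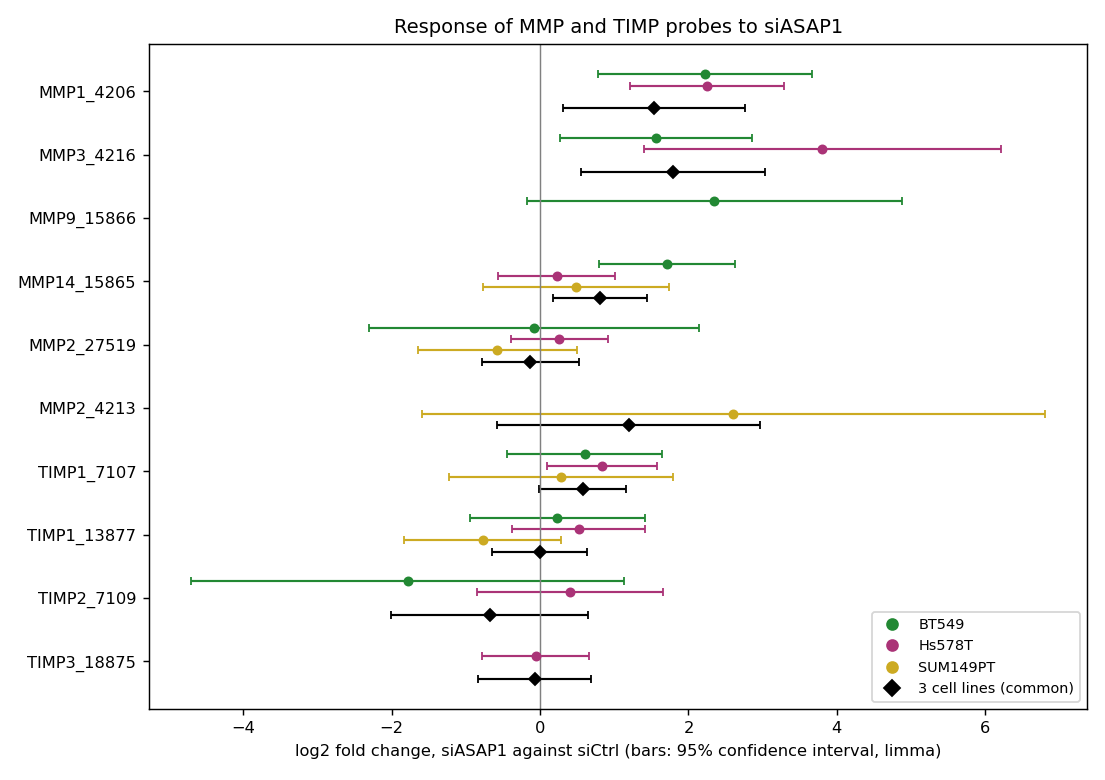
Log2 FC of siASAP1 against siCtrl (horizontal) for the 10 member probes that passed the filter in at least 1 fit (vertical), in each cell line (circles) and over the 18 libraries (black diamonds), with 95% confidence intervals from limma. The intervals of MMP1 and MMP3 lay above 0 in BT549, in Hs578T and over the 18 libraries, as did those of MMP14 in BT549 and over the 18 libraries and that of TIMP1_7107 in Hs578T.

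MMP1 had 690, 1504 and 2798 normalized counts in the siASAP1 libraries of BT549, against 752, 143 and 263 after siCtrl. In Hs578T it had 535, 635 and 1043 after siASAP1, against 72.6, 205 and 218. The groups did not overlap in Hs578T, whereas in BT549 siCtrl replicate 1 lay above siASAP1 replicate 1. The ratio of the means was 4.31 in BT549 and 4.47 in Hs578T. The Log2 FC was 2.22 (SE 0.65) in BT549 and 2.25 (SE 0.46) in Hs578T, with adjusted p = 0.52 and 0.71 from limma, and both met the limits of the study. Exact permutation tests of 3 libraries against 3 gave p = 0.2 in BT549 and p = 0.1 in Hs578T, where 0.1 is the smallest p possible. In SUM149PT, MMP1 stayed at 0, 4 and 10 reads after siASAP1 against 10, 0 and 2 after siCtrl, and was not tested.

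MMP3 had 165, 225 and 543 normalized counts after siASAP1 in BT549, against 105, 47.8 and 152 after siCtrl. In Hs578T it had 47.6, 23.7 and 136 after siASAP1, from 42, 41 and 128 reads, against 4.22, 10.6 and 0. Every siASAP1 library lay above every siCtrl library in both lines (exact permutation p = 0.1 in each). The Log2 FC was 1.56 (SE 0.58, adjusted p = 0.60, limma) in BT549 and 3.80 (SE 1.07, adjusted p = 0.91, limma) in Hs578T, and both met the limits of the study. In Hs578T the probe passed the filter on low values only through the siASAP1 libraries, so a difference was built into its being tested there. The BT549 difference fell short of the limits in a fit of all 18 libraries (unadjusted p = 0.090, limma), without siCtrl replicate 2 (1.10) and without siASAP1 replicate 3 (1.07), and the Hs578T difference did so with voom weights (unadjusted p = 0.070).

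MMP10 and MMP13, the other 2 members on chromosome 11, were at or near the limit of detection. MMP10 had 27 reads in Hs578T siASAP1 replicate 2, 1 and 4 reads in 2 siCtrl libraries of BT549, and none in the other 15 libraries. MMP13 had at most 12 reads in any library and none in 10 of 18. Neither passed the filter, and a change of either was not detectable at this depth. Whether the probes of these related genes cross-read was not checked, because their sequences were not used here.

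MMP14 had 8384, 17681 and 27181 normalized counts after siASAP1 in BT549, against 5084, 5351 and 4204 after siCtrl. All 3 siASAP1 libraries lay above the siCtrl libraries, by a ratio of means of 3.64 (exact permutation p = 0.1). The Log2 FC was 1.71 (SE 0.42, adjusted p = 0.35, limma) and met the limits of the study. In Hs578T the counts were 6655, 6635 and 8464 after siASAP1, against 4863, 4303 and 11226, and in SUM149PT 783, 1272 and 1145, against 1078, 339 and 1138. These ranges overlapped, with a Log2 FC of 0.22 (95% interval -0.56 to 1.01) in Hs578T and 0.48 (95% interval -0.77 to 1.74) in SUM149PT. Without the library labelled siCtrl replicate 2 the SUM149PT value was -0.08.

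In BT549 the lowest siASAP1 values of MMP1, MMP3 and MMP14 came from the same library, replicate 1. This library also had the lowest ASAP1, with 367 normalized counts against 730 and 783 in the other siASAP1 libraries, and it scored 1.06 on the replicate axis, against -1.01 and -0.96 for them. Without it, MMP1 (Log2 FC 2.74, adjusted p = 0.049) and MMP14 (Log2 FC 2.17, adjusted p = 0.015) passed the adjusted threshold in limma, as did 544 probes in all, and MMP3 did not (adjusted p = 0.087). Across the 18 libraries, after the mean of each cell line was subtracted, Pearson's r with the replicate axis was -0.68 for MMP14, -0.54 for MMP1 and -0.08 for MMP3. The part of this axis in the differences was not tested. In BT549 the summed mesenchymal-like list was also higher after siASAP1, at 61854 to 111585 against 58565 to 60668. It was also higher in SUM149PT, at 10025 to 12103 against 5875 to 7340, and overlapped in Hs578T, at 153382 to 202312 against 157500 to 267167. The leukocyte-like list (5 genes) summed to 22.2 to 61.1 against 4.40 to 12.5 in BT549 and to 251 to 321 against 80.8 to 133 in Hs578T, with PTPRC and CD3E at 0 in the siCtrl libraries of each line and CD68 carrying the sum. The part of these genes in the MMP differences was not tested.

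The gelatinases gave no difference past the limits of the study when each line was fitted alone with all its libraries. MMP9 had 24.0, 20.8 and 19.2 normalized counts after siASAP1 in BT549, from 27, 22 and 21 reads, against 6.24, 0 and 10.5 after siCtrl. The groups did not overlap (exact permutation p = 0.1), and the Log2 FC was 2.35 (SE 1.14, adjusted p = 0.65, limma). MMP9 passed the filter there only through the siASAP1 libraries, and it met the limits in a fit of all 18 libraries, where its unadjusted p was 0.012 instead of 0.065 (limma). The Log2 FC was 2.35 in that fit too, with an SE of 0.84. MMP9 had no read in any library of Hs578T or SUM149PT, which added libraries without spread, so nothing is read from the lower p. MMP2, read by MMP2_27519, had 1963, 2831 and 1760 normalized counts after siASAP1 in Hs578T, against 1667, 2422 and 1406 (Log2 FC 0.26, 95% interval -0.40 to 0.92). In SUM149PT it had 284, 709 and 393, against 724, 486 and 750 (Log2 FC -0.58, 95% interval -1.65 to 0.50), and the Log2 FC was -0.78 (adjusted p = 0.31, limma) without the library labelled siCtrl replicate 2. In BT549 it stayed between 6 and 25 reads per library.

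The 2 probes of MMP2 did not follow each other. In Hs578T, where MMP2_27519 had at least 1427 reads in each library, MMP2_4213 had at most 5. In SUM149PT, MMP2_4213 had 0 and 3.20 normalized counts in siCtrl replicates 1 and 3 and 79.3 in the library labelled siCtrl replicate 2, against 143, 5.13 and 85.4 after siASAP1. The libraries high in MMP2_4213 were thus those low in MMP2_27519 within this line. The Log2 FC of MMP2_4213 in SUM149PT was 2.61 (SE 1.82, adjusted p = 0.67, limma), and 4.37 (unadjusted p = 0.022, adjusted p = 0.14) without the library labelled siCtrl replicate 2, which met the limits. Without that library the probe passed the filter only through the siASAP1 libraries, so a difference was built into its being tested. With the line means subtracted, r over the 18 libraries was -0.47 between the 2 MMP2 probes and 0.62 between the 2 TIMP1 probes. Correlations of this kind are descriptions, since all probes share the depth and the replicate axis of their libraries.

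**Figure D3:**
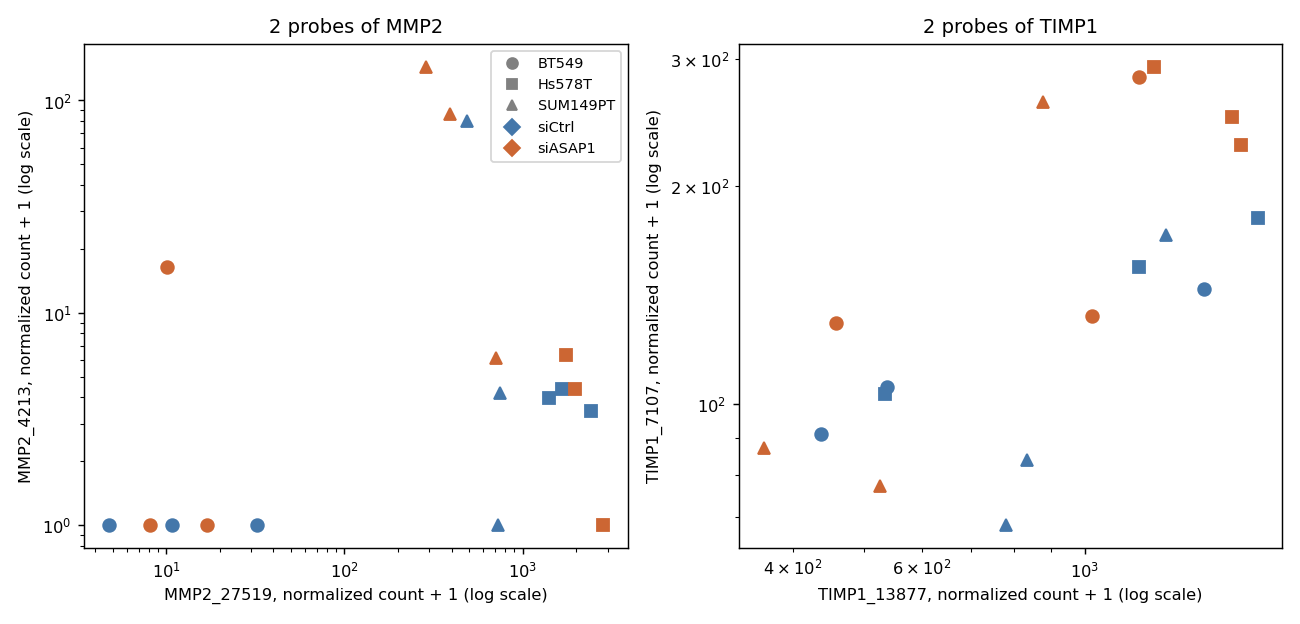
Normalized count plus 1 of the 2 probes of MMP2 (left) and of TIMP1 (right) in each of the 18 libraries, on log axes, by cell line (shape) and treatment (colour). For MMP2, the 3 SUM149PT libraries above 79 on the vertical axis were the 3 lowest of that line on the horizontal axis, while the TIMP1 probes varied together with r of 0.62 after line means were subtracted.

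Among the inhibitors, TIMP1 showed the clearest pattern in Hs578T. TIMP1_7107 had 248, 227 and 291 normalized counts after siASAP1, against 154, 180 and 102, without overlap (Log2 FC 0.84, SE 0.33, adjusted p = 0.92, limma, exact permutation p = 0.1). TIMP1_13877, the probe with more reads, had 1588, 1634 and 1243, against 1186, 1722 and 533, and these overlapped (Log2 FC 0.52, 95% interval -0.38 to 1.42). In BT549 the values were 0.60 for TIMP1_7107 and 0.23 for TIMP1_13877. In SUM149PT they were 0.28 and -0.77, of opposite sign, and the 95% intervals of all 4 held 0. Without the library labelled siCtrl replicate 2 the SUM149PT values were 0.16 and -0.86. TIMP3 in Hs578T had 194, 231 and 147 after siASAP1, against 181, 238 and 173, a Log2 FC of -0.06 (95% interval -0.78 to 0.66) that turned to 0.05 when libraries were scaled by their totals. TIMP2 had a Log2 FC of -1.78 (SE 1.32) in BT549, where siASAP1 libraries held 7, 22 and 0 reads, and 0.41 (SE 0.56) in Hs578T.

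In a fit of all 18 libraries that allowed for the cell line, MMP3 and MMP1 were the member probes with the highest common Log2 FC, at 1.79 (SE 0.59, adjusted p = 0.13) and 1.54 (SE 0.59, adjusted p = 0.19) in limma. MMP14 followed among the probes with an interval above 0, at 0.81 (SE 0.30, adjusted p = 0.19). Exact permutation of the labels within the cell lines gave p = 0.0050 for MMP3, p = 0.038 for MMP1 and p = 0.0305 for MMP14. The smallest p possible was 0.00025 for MMP1 and MMP14. MMP3 had no read in SUM149PT, so 0.0050 was the smallest p possible for it. Its common Log2 FC also averages in that line, where the difference was fixed at 0. Of 9 tested member probes, 0 passed an adjusted p of 0.05 in limma (1.74% of all 10475 probes did), and 2, MMP1 and MMP3, met the limits of the study with a higher level (3.6% of all probes). With voom weights MMP1 passed (Log2 FC 2.17, adjusted p = 0.012). In BT549 and Hs578T alone, a setting chosen after seeing the data, the values were 2.23 (adjusted p = 0.051) for MMP1, 2.68 (adjusted p = 0.12) for MMP3 and 0.97 (adjusted p = 0.28) for MMP14. Without the library labelled SUM149PT siCtrl replicate 2 they were 1.35 (adjusted p = 0.27), 1.92 (adjusted p = 0.13) and 0.67 (adjusted p = 0.27) over the 17 libraries left. The common values of TIMP1_7107, TIMP1_13877, TIMP2 and TIMP3 were 0.58, -0.01, -0.68 and -0.07, and their intervals all held 0. Scaling by library totals moved the median Log2 FC of all probes by more than 0.1, to 0.12 in Hs578T, 0.30 in SUM149PT and 0.15 over the 18 libraries, and turned TIMP1_13877 to 0.12.

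Whether the response differed between the cell lines was tested by the interaction of treatment and line. Of the 9 member probes, 0 passed an adjusted p of 0.05 in limma (0.00955% of all probes did). The lowest values were those of MMP3 (unadjusted p = 0.020, adjusted p = 0.64), MMP14 (unadjusted p = 0.099, adjusted p = 0.90) and TIMP1_13877 (unadjusted p = 0.20, adjusted p = 0.97). MMP3 had no read in SUM149PT, so its difference there was fixed at 0 without spread, and MMP1 had at most 10 reads per library there. For these 2 genes the test cannot tell a lack of response from a lack of detection in that line. The larger response of MMP3 in Hs578T and of MMP14 in BT549 was thus not shown to differ from the other lines. Without the library labelled SUM149PT siCtrl replicate 2, the adjusted p was 0.28 for MMP3, 0.23 for MMP14 and 0.31 for MMP1.

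Other genes around MMP activity were read through 6 lists, tested over the 18 libraries. Of the other MMPs and TIMP4, 17 of 18 symbols were in the table, 4 probes were tested and 0 passed an adjusted p of 0.05, with MMP16 at 0.01, MMP17 at -0.53, MMP19 at 0.46 and MMP23B at -0.43. Their median was -0.21, against 0.02 for all probes. Of the ADAM and ADAMTS proteases, 1 of 16 probes tested rose and 0 fell (1.74% of all probes passed in this test). It was ADAM19, which encodes a membrane-anchored sheddase, whose common Log2 FC of 1.52 had an SE of 0.26 (adjusted p = 0.0062, limma), with every siASAP1 library above every siCtrl library in each of the 3 lines. It had 478 to 646 normalized counts after siCtrl and 1453 to 2229 after siASAP1 in BT549.

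Of 15 probes for inducers of MMP transcription, 2 rose and 0 fell at an adjusted p of 0.05 (1.74% of all probes passed), with a median of 0.51. They were IL1B (Log2 FC 2.0, SE 0.45, adjusted p = 0.026, limma) and IL1A (Log2 FC 2.11, SE 0.52, adjusted p = 0.042, limma), the genes of interleukin-1 beta and alpha, inflammatory cytokines known to induce MMP1 and MMP3 in fibroblasts. The IL1B probe passed the filter on low values only through the siASAP1 libraries, so a difference was built into its being tested. IL1B had no read in the siCtrl libraries of BT549, at most 5.48 normalized counts after siASAP1 there, and 39.3 to 94.9 after siASAP1 in Hs578T against 6.75 to 11.4. IL1A had no read in BT549 siCtrl and at most 6.39 after siASAP1. IL1A overlapped in Hs578T, at 145 to 220 after siASAP1 against 16.7 to 206, and reached 713 to 871 in SUM149PT after siASAP1 against 56.5 to 84.4. IL1B had 69.2 to 103 in SUM149PT after siASAP1 against 6.38 to 20.8. The part of the interleukins in the MMP differences was not tested.

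Of 17 probes for MMP activators, surface partners and other inhibitors, 0 passed an adjusted p of 0.05 (median 0.56). PLAUR, the urokinase receptor, had by its probe PLAUR_23941 a Log2 FC of 1.13 (BT549), 0.25 (Hs578T) and 1.17 (SUM149PT) (common adjusted p = 0.059). PLAU, the gene of urokinase itself, had a common value of 1.02 by its probe PLAU_5178 (adjusted p = 0.098, limma), and is named after its value was seen.

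Of 16 probes for AP-1 and ETS factors, 0 passed an adjusted p of 0.05 over the 18 libraries (median 0.39). In BT549, 6 of 16 were higher past the limits of the study and 0 lower, where 3.28% of all probes were higher. FOSL1, an AP-1 subunit, had a Log2 FC of 1.33 (BT549), 0.03 (Hs578T) and 1.5 (SUM149PT) (common adjusted p = 0.15), and ETV5, an ETS factor, had 1.35, -0.30 and -1.31 (common adjusted p = 0.93). Of 16 probes for invadopodium components, 1 fell and 0 rose (1.74% of all probes passed). It was CTNNB1, the gene of beta-catenin, a protein that links cadherins to the actin skeleton and acts in Wnt signalling, with a common value of -0.71 (SE 0.15, adjusted p = 0.020, limma) and lower counts without overlap in BT549 and SUM149PT. These counts and medians describe the lists, and nothing particular to a list was tested.

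**Figure D4:**
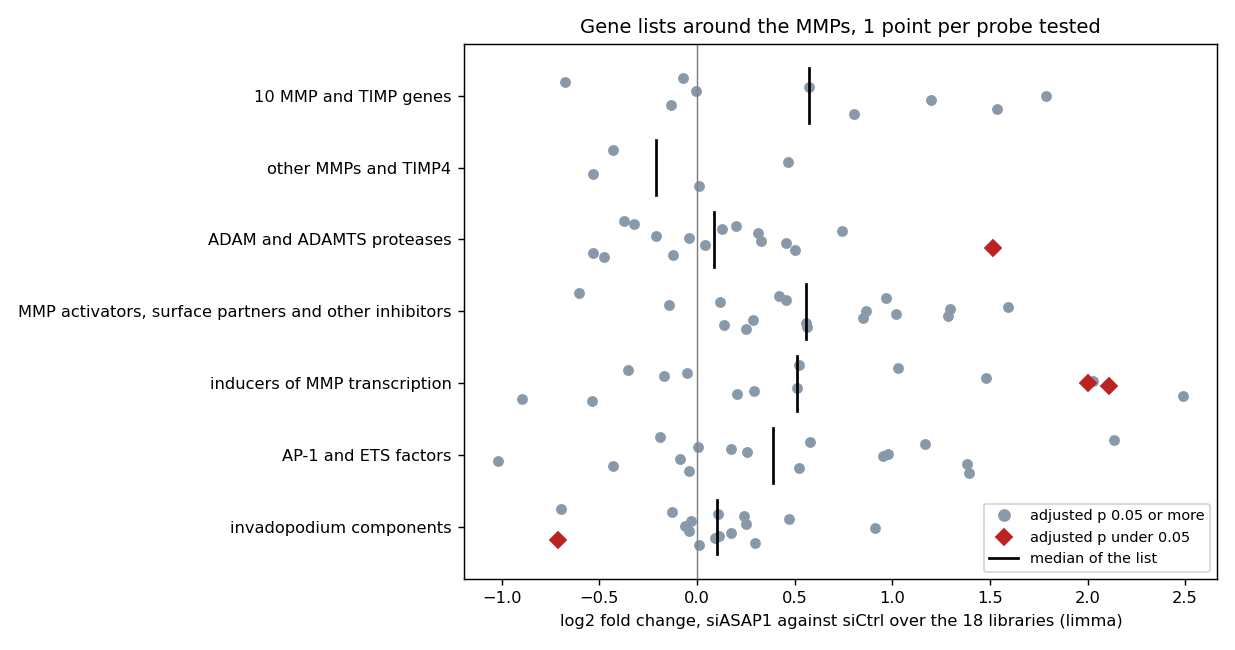
Log2 FC of siASAP1 against siCtrl over the 18 libraries (horizontal, limma) for each tested probe of the 10 genes and of the 6 other lists (vertical), with the median of each list as a bar and probes at an adjusted p under 0.05 as red diamonds. The red diamonds were ADAM19, IL1A, IL1B and, below 0, CTNNB1, and none belonged to the 10 MMP and TIMP genes.

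With line means subtracted, MMP1 and MMP14 followed each other over the 18 libraries with r of 0.71, and MMP1 and MMP3 with r of 0.56, while MMP3 and MMP14 had r of 0.22. MMP2_27519 was closer to TIMP1_13877, with r of 0.77, than to MMP14, with r of 0.04. Among all probes of other genes, the most like MMP1 were RCAN1 and GALNT1 (r of 0.84 each), the most like MMP3 were WDR45B (0.86) and TRIB1 (0.85), and the most like MMP14 were DDAH2 (0.95) and KLHL18 (0.94). For MMP2_27519 they were ATP5E (0.88) and MYL12B (0.87), and for MMP2_4213 NEFL (0.85) and NLRC5 (0.83). For TIMP1_13877 they were RPL36A (0.92) and H3F3A (0.89), for TIMP1_7107 RASSF1 (0.88) and SEMA3C (0.87), for TIMP2 GBAS (0.83) and SYNJ2BP-COX16 (0.82), and for TIMP3 SSX2 (0.88) and CCDC152 (0.82). None of these 18 probes belonged to another member of the set. Each r was the highest of about 10475 probes over 18 libraries that share depth and the replicate axis.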

How the data were processed

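TempO-Seq libraries of 3 cell lines were grouped by the submitters' labels, 3 replicates for each of the 6 groups, and the study describes biological triplicates. The authors counted reads per probe and deposited log2 values of the count divided by a DESeq2 size factor, plus 1. The submitters' processing notes name bcl2fastq, Bowtie and DESeq2, and aligner settings and genome build are not given in the sources used here. Multiplying back gave whole reads for 100% of values (tolerance 0.01).

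limma 3.58.1 (lmFit, eBayes with trend, R 4.3.3) was fitted across all probes that averaged 10 or more normalized counts in the libraries fitted, with Benjamini-Hochberg adjustment over all probes tested, and was tested on simulated data. The simulated reads had a single dispersion for all probes and no replicate axis, so that test need not carry over to these data. The study's Wald test on counts was not used, although whole reads could be recovered. limma on the deposited log2 values stood in for it. Single values had two-sided exact permutation tests. Members and lists were chosen with earlier results of these data known. Named were all members, ASAP1, up to 4 genes of a list past an adjusted p of 0.05 in the common test or else up to 2 past the limits of the study in at least 2 lines, and the 2 probes most like each member. Alternatives were scaling by library totals or upper quartile, no filter or a minimum of 50, a pseudocount of 0.1, voom weights, a block for the replicate number, a joint fit of the 18 libraries, summed probes, and each library left out. Intervals and limits for counts of 0 cover counting error only, with 3 reads as the floor. Values of some genes of the lists are not reported here.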

Additional observations from a re-analysis of the deposited data

How the results depend on the processing

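Leaving out 1 library at a time gave between 0 and 2 member probes past an adjusted p of 0.05 for siASAP1 in BT549, the 2 being MMP1 and MMP14 without siASAP1 replicate 1, and 0 in Hs578T, in SUM149PT and over the 18 libraries. Under the limits of the study SUM149PT gave between 0 and 1, with MMP2_4213 (4.37) past them without the library labelled siCtrl replicate 2 and TIMP1_13877 (-1.11) without siASAP1 replicate 2. In the first of these fits MMP2_4213 passed the filter only through the siASAP1 libraries. In Hs578T the limits gave 1 probe instead of 2 with a minimum of 50 normalized counts, which left MMP3 untested, 1 with voom weights, and between 2 and 3 without single libraries, the 3 including TIMP1_7107 (1.01) without siCtrl replicate 2. Over the 18 libraries 1 probe passed the adjusted threshold with voom weights, and 1 instead of 2 met the limits with a pseudocount of 0.1. The cause of the changes under voom weights and the pseudocount was not tested.

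Same-numbered replicates were not treated as pairs, because only in Hs578T were their deviations positively correlated for every replicate number. The correlation of their deviations lay between -0.39 and 0.14 in BT549, 0.0998 and 0.42 in Hs578T, and -0.66 and -0.33 in SUM149PT. With the replicate number as a block, 1 member probe, MMP1, passed in Hs578T (adjusted p = 0.0091, limma), as did 37 probes in all instead of 0, and over the 18 libraries 34 probes passed instead of 182. No other count of member calls changed with the block.

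Small differences changed sign. MMP2_27519 in BT549 was 0.26 with voom weights, 0.36 with summed probes, and -0.74 to 0.15 without single libraries, and over the 18 libraries it was 0.089 with summed probes, 0.089 in BT549 and Hs578T alone, and -0.32 to 0.070 without single libraries. TIMP1_13877 over the 18 libraries was 0.12 with library totals, 0.041 with voom weights, 0.077 with summed probes, 0.38 in BT549 and Hs578T alone, and -0.18 to 0.13 without single libraries. TIMP3 in Hs578T was 0.054 with library totals. MMP2_4213 between SUM149PT and Hs578T siCtrl was -0.016 with a pseudocount of 0.1. Without single libraries TIMP1_13877 in BT549 ran from -0.11 to 0.76, MMP14 in Hs578T from -0.037 to 0.65, TIMP3 in Hs578T from -0.21 to 0.11, MMP14 in SUM149PT from -0.085 to 0.79, TIMP1_7107 in SUM149PT from -0.28 to 0.67 and TIMP3 over the 18 libraries from -0.21 to 0.12. Between siCtrl groups MMP14 ran from -0.61 to 0.086 (BT549 against Hs578T), TIMP1_7107 from -0.56 to 0.10 (SUM149PT against BT549) and TIMP1_13877 from -0.60 to 0.25 (SUM149PT against Hs578T). MMP1 and MMP3 in BT549 and Hs578T, and MMP14 in BT549, kept their sign in every setting run. TIMP2 in BT549 could not be fitted without siCtrl replicate 1, where it fell under the filter.

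Scaling by library totals raised the share of higher calls under the limits of the study in Hs578T from 48.1% to 70.3%, in SUM149PT from 55.1% to 74.0%, and over the 18 libraries from 55.5% to 73.2%. With 3 libraries per group, 1 panel of probes and 1 siRNA pool, small changes and genes with few reads (MMP9, MMP10, MMP13) could not be resolved.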
